A study of Mus musculus with 8 samples.

Results

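The genes of glycosaminoglycan synthesis and sulfation were taken as 47 genes chosen by name, of the 52325 gene identifiers listed in each library. They were grouped by role into 6 genes of the shared linker, 16 of chondroitin and dermatan chains, 12 of heparan chains, 2 of hyaluronan and 11 that supply sulfate and sugar donors. RNA-seq was performed on costal (rib) chondrocytes freed by collagenase from 7-d-old mice on a C57BL/6J background, with 4 wild-type and 4 *Mir140*-null libraries. *Mir140*-null mice lack the locus that encodes miR-140-5p and miR-140-3p, both abundant in cartilage. The deletion was made with Cas9 in zygotes of mixed C57BL/6 and CBA/ca origin, and after backcrossing the heterozygous animals gave separate wild-type and null lines. Differences due to the deletion therefore cannot be told apart from other differences between these lines. Expression is given as TPM, a relative abundance that accounts for transcript length and has the same total in each library. Reads behind each value cannot be recovered from TPM, so depth per value is unknown. The labels do not state that the libraries came from separate animals, so p-values measure only the spread between these samples.

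Glycosaminoglycans are long sugar chains that hold water in cartilage and bind growth factors. Chondroitin and heparan chains are built in the Golgi on a linker of xylose, galactose and glucuronic acid attached to a core protein such as aggrecan, and are then sulfated from the donor PAPS, whereas hyaluronan is made at the plasma membrane without a core protein or sulfate. In growth cartilage much of the sulfate enters cells through the transporter *Slc26a2*, and inherited loss of genes of this route causes short stature and joint disease.

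*Mir140* had a value of 0 in every wild-type library and in *Mir140*-null replicates 1, 3 and 4, and of 8.86 TPM in *Mir140*-null replicate 2. The value in *Mir140*-null replicate 2 goes against its label, and its source was not tested. The libraries were made from poly(A) RNA, which captures a miRNA hairpin poorly, so a value of 0 does not check a label. The authors genotyped the mice by PCR of ear tissue and Sanger sequencing. They also measured miR-140-5p and miR-140-3p by qRT-PCR in rib chondrocyte RNA, and several of those samples were among the sequenced ones. Here the libraries were grouped by their labels. The 14 chondrocyte markers were led by *Col2a1* in all libraries and summed to 85232, 85916, 68926 and 84089 TPM in wild-type replicates 1 to 4 and to 51199, 71022, 52619 and 69308 TPM in *Mir140*-null replicates 1 to 4. None of the 14 was at 0 throughout, and the sums of the genotypes overlapped. Of these 14, 5 fell (35.7%, against 6.40% of all tested genes) and 1 rose (7.14%, against 10.5%) in *Mir140*-null libraries by the limma test described below, with 4 lower under median-ratio scaling and 3 under quantile normalization. Of the 8 fits with 1 library left out, *Chad*, *Hapln1* and the higher *Acan* passed in all 8 and *Col9a3* in 3. *Col9a1* and *Col11a1* passed in 1 each, without *Mir140*-null replicate 4. Limma called 0 of the 14 with *Mir140*-null replicates 3 and 4 as the only null libraries. At an unadjusted p under 0.05 that fit gave 6 lower (42.9%, against 8.44% of all tested genes) and 1 higher (7.14%, against 16.5%).

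*Mir140*-null replicates 1 and 2 stood apart from the other 6 libraries. The 8 fibroblast and perichondrium markers, with *Col1a2* the most abundant on average, summed to 588 and 742 TPM in these libraries, to 5281 and 3845 TPM in *Mir140*-null replicates 3 and 4, and to 5523, 3093, 5916 and 3285 TPM in wild-type replicates 1 to 4. *Col1a1* was at 47.8 and 50.1 TPM in these 2 libraries and at 793 to 1544 TPM in the other 6, and none of the 8 markers was at 0 throughout. Of these 8, limma called *Pdgfra* (log2 fold change 1.03, standard error 0.16, limma adjusted p = 0.00846) and *Twist2* (log2 fold change 0.54, standard error 0.14, limma adjusted p = 0.0344) higher in *Mir140*-null libraries, and the other 6 did not pass. Neither passed with *Mir140*-null replicates 3 and 4 as the only null libraries (limma adjusted p = 0.0627 and 0.0621), and of the 8 fits with 1 library left out *Twist2* passed in 1, without *Mir140*-null replicate 1. Genes at 0.5 TPM or above numbered 15800 and 16056 in these libraries and 16991 to 17950 elsewhere. The share of TPM from mitochondrially encoded genes was 4.06% to 6.99% in wild-type and 8.41% to 10.1% in *Mir140*-null libraries, with no overlap. In bulk samples fewer cells of a type and less RNA per cell cannot be told apart, and the part of these differences in the results was not tested. Counts and the genes past the threshold are therefore also given from a fit with *Mir140*-null replicates 3 and 4 as the only null libraries, which was chosen after the data were seen.

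**Figure D1:**
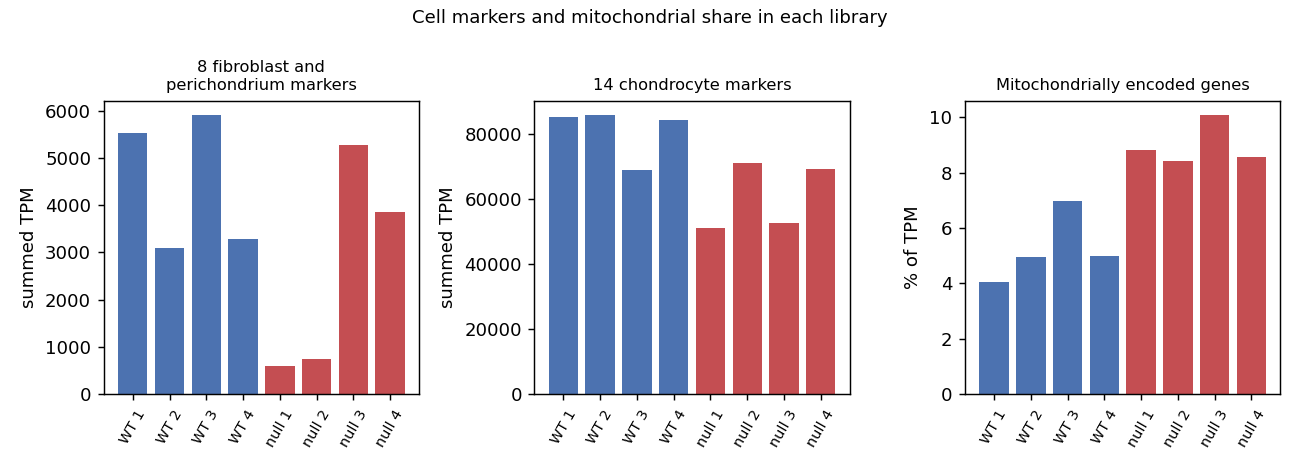
Bars give the summed TPM of 8 fibroblast and perichondrium markers, the summed TPM of 14 chondrocyte markers, and the percentage of TPM from mitochondrially encoded genes in each of the 4 wild-type (blue) and 4 *Mir140*-null (red) libraries. *Mir140*-null replicates 1 and 2 lie at 588 and 742 TPM in the left panel, below the other 6 libraries, and all *Mir140*-null libraries lie above all wild-type libraries in the right panel.

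The hyaluronan synthase *Has2* rose by more than any other of these genes in *Mir140*-null chondrocytes, and the sulfate transporter *Slc26a2* fell. Among the genes that rose were 3 heparan sulfotransferases (*Hs2st1*, *Ndst1* and *Ndst2*), 4 chondroitin and dermatan enzymes (*Chst11*, *Dse*, *Chpf2* and *Chst7*), the linker enzyme *Xylt1*, and *Slc35b3* and *Impad1* of the sulfate donor route. Genotypes were compared with limma on log2(TPM + 1) over the 17177 genes that reached 0.5 TPM in 4 or more of the 8 libraries, with Benjamini-Hochberg adjusted p under 0.05 as the threshold. Because 1 was added to each TPM, fold changes of genes with low TPM are shrunken. Of the 47 genes, 44 were tested, and 11 were higher (25.0%, against 10.5% of all tested genes) and 1 was lower (2.27%, against 6.40%). The 47 genes and the other lists were chosen with earlier results of these data known, so such shares, here and below, only describe the lists. At an unadjusted p under 0.05, 19 of the 44 were higher (43.2%, against 19.0% of all tested genes) and 1 lower (2.27%, against 14.9%). The median log2 fold change was 0.27 over the 44 genes and -0.01 over all tested genes. In 18 of the 44 the libraries of the genotypes did not overlap, 17 of them higher in *Mir140*-null libraries (38.6%, against 15.7% of all tested genes) and 1 lower (2.27%, against 10.2%), and the 12 genes past the threshold were among these 18. In the other 6, *B3galt6*, *Chsy1*, *Chsy3*, *Ust*, *Glce* and *Papss2*, the *Mir140*-null libraries were the higher ones.

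**Figure D2:**
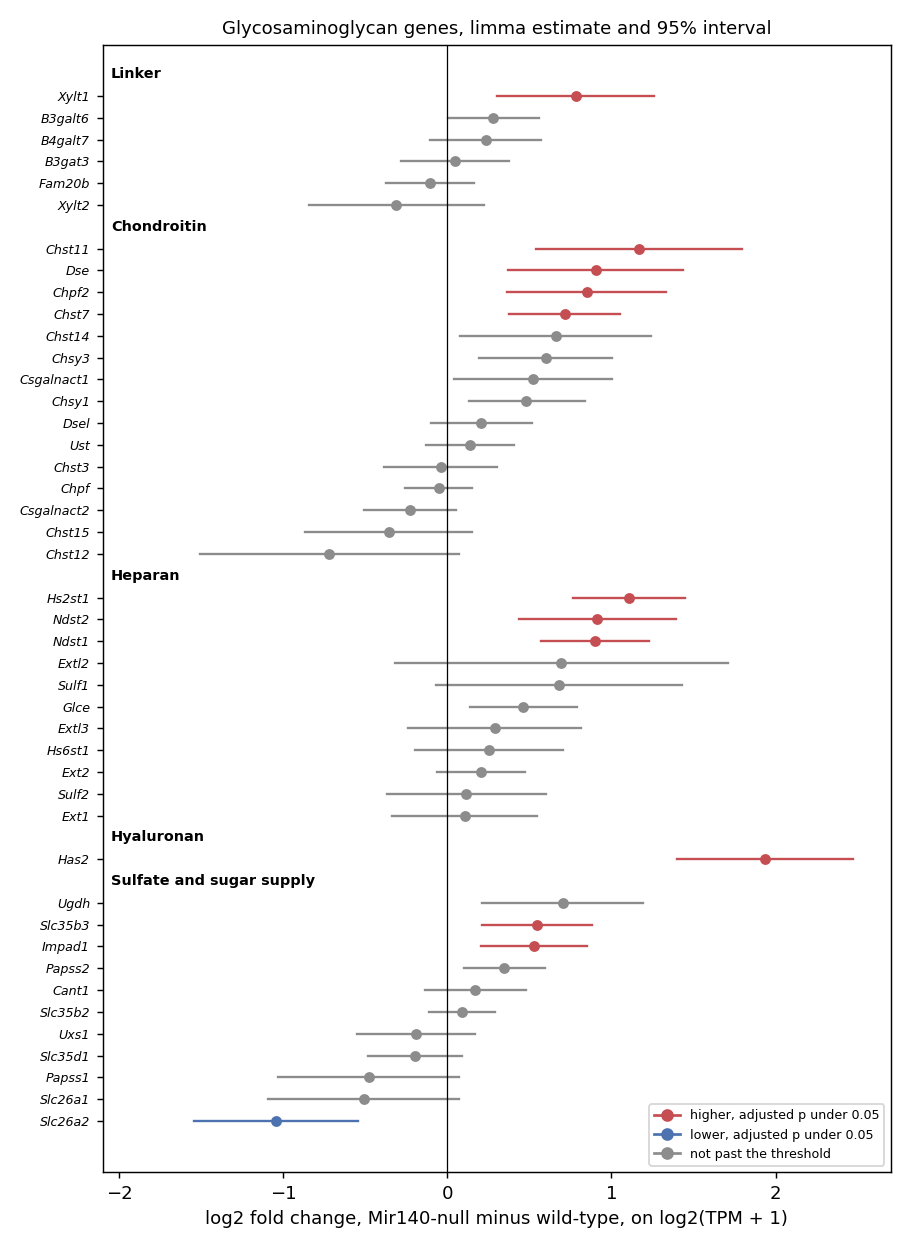
Points give the limma log2 fold change of each of the 44 tested genes, *Mir140*-null minus wild-type on the log2(TPM + 1) scale, and lines its 95% confidence interval, grouped by role (red higher, blue lower, grey not past the threshold). *Has2* at 1.93 lies farthest to the right and *Slc26a2* at -1.04 farthest to the left.

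**Figure D3:**
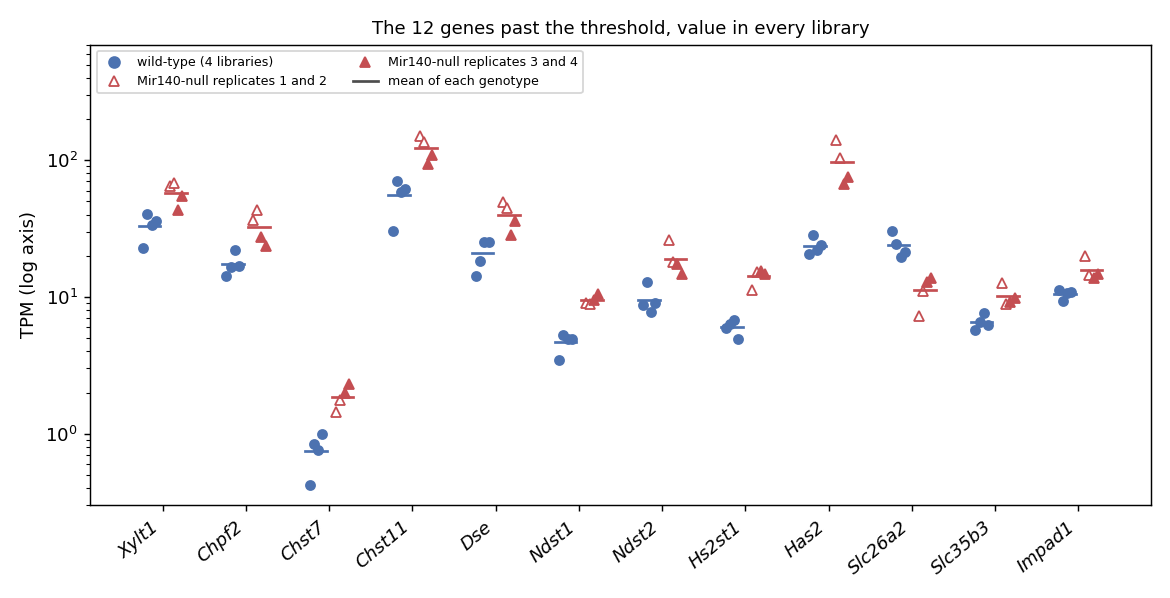
Points give the TPM, on a log axis, of the 12 genes past the limma threshold in each of the 4 wild-type libraries (blue circles) and 4 *Mir140*-null libraries (open triangles for replicates 1 and 2, filled for 3 and 4), with a line at each mean. The genotypes are apart in all 12, and *Slc26a2* is the one with lower *Mir140*-null values.

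The number past the threshold depended on the libraries and on the scaling between them. Fits with fewer libraries also have less power, so a gene lost without a library was not necessarily driven by it. Without *Mir140*-null replicate 2, *Slc26a2* was lost with a log2 fold change of -1.046, against -1.044 with all libraries. *Xylt1*, lost in the same fit, went from 0.781 to 0.695. With *Mir140*-null replicates 3 and 4 as the only null libraries, limma called 3 of the 44 higher (6.82%, against 2.08% of all tested genes), *Has2*, *Hs2st1* and *Ndst1*, and 0 lower (against 1.22%), with 12 higher (27.3%, against 16.5% of all tested genes) and 1 lower (2.27%, against 8.44%) at an unadjusted p under 0.05. Leaving out 1 library at a time gave 4 to 10 higher (9.09% to 22.7%, against 4.54% to 9.04% of all tested genes), with 5 when wild-type replicate 1 or *Mir140*-null replicate 1 was left out and 4 when wild-type replicate 3, wild-type replicate 4 or *Mir140*-null replicate 2 was left out, while *Slc26a2* was lost without *Mir140*-null replicate 2. Median-ratio scaling left 7 of the 44 higher (15.9%, against 7.96% of all tested genes) and 1 lower, without *Dse*, *Xylt1*, *Slc35b3* and *Impad1*, and it moved the share of higher genes among all called genes from 62.0% to 50.9%. Quantile normalization also left 7 higher (15.9%, against 8.77%) and 1 lower, without *Dse*, *Xylt1*, *Chpf2* and *Impad1*, and a fit with no filter on low values left 3 of the 47 higher (6.38%, against 2.67%) and 1 lower. *Has2*, *Hs2st1* and *Ndst1* passed in each of the 18 alternative fits.

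Because *Mir140*-null cells lack miR-140-3p, the 3'UTRs of the 44 tested genes were searched for the 7 bases that pair with its seed. The mature sequence, credited to RefSeq (GRCm38.p6, chr8:107551288-107551308, plus strand), is shown, because its seed sets the motif, with the seed of the annotated form, miR-140-3p.2, in capitals, and again with the seed of miR-140-3p.1, the form that starts 1 base later. The seed of miR-140-5p, which these cells also lack, was not searched.
miR-140-3p.2: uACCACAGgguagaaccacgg
miR-140-3p.1: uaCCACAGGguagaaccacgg
Taking for each gene its longest 3'UTR in GENCODE M21, the search found CTGTGGT, the match to miR-140-3p.2, in 10 of the 44 genes (22.7%) and in 2470 (19.0%) of the 12988 tested genes with a 3'UTR. CCTGTGG, the match to miR-140-3p.1, was in 11 (25.0%) and in 2623 (20.2%) of these genes. The median length of these 3'UTRs was 1674 bases for the 44 genes and 1159 bases for the 12988 genes, so the 44 genes offered more sequence to match. These motifs overlap by 6 bases, and only the transcript strand was searched.

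At least 1 match was found in 14 of the 44 genes. They comprised 5 of the 11 higher genes (*Chpf2*, *Chst11*, *Hs2st1*, *Ndst1* and *Ndst2*), *Slc26a2*, which fell, and 8 genes that did not pass. The share with either match is not given for all tested genes or for all genes that rose. These counts therefore have no background and only list the genes. The other 6 higher genes, *Has2* among them, held no match to the miR-140-3p seeds, which says only that these letters are not in the 3'UTR searched. *Ndst1* held most, with 4 matches to miR-140-3p.2 and 3 to miR-140-3p.1. Of the 5 higher genes, 4 are shown here with the match in capitals, on the transcript strand (mm10), as examples of the sites in genes that rose.
*Chpf2*, miR-140-3p.2, chr5:24592515-24592543, plus strand: agaagaagaatCTGTGGTagggttgtgga
*Chst11*, miR-140-3p.2, chr10:83194338-83194366, plus strand: ttgtcttccgtCTGTGGTccagtgctgtg
*Chst11*, miR-140-3p.1, chr10:83192273-83192301, plus strand: cgggatgtgtgCCTGTGGccattcaagaa
*Hs2st1*, miR-140-3p.1, chr3:144434318-144434346, minus strand: gctggcggagtCCTGTGGagtttttaact
*Ndst2*, miR-140-3p.1, chr14:20723838-20723866, minus strand: agtgggatctaCCTGTGGcctggcctctc
The sites shown for *Chpf2* and *Hs2st1* are followed by an A, which makes them matches of 8 bases in the usual naming. Matches of 8 bases to miR-140-3p.2 were also found in *Extl3* and *Chst14*, which did not pass. *Chpf2* also held 1 further match to each seed, at overlapping positions, and neither was followed by an A.

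The study's lists of predicted targets, given as human symbols, were matched by symbol. Tested genes whose mouse symbol has no human counterpart cannot match, which lowers the share over all tested genes. All 44 genes had a 3'UTR, against 12988 of the 17177 tested genes. Of the 44 genes, 5 (11.4%) were predicted for miR-140-5p (*Hs2st1*, *Ndst1*, *Sulf1*, *Sulf2* and *Ust*), against 2.08% of all tested genes. For miR-140-3p.1 there were 3 (*Chst14*, *Ndst1* and *Ndst2*), 6.82% against 3.04%, and for miR-140-3p.2 there were 4 (*Hs2st1*, *Ndst1*, *Papss2* and *Slc35b2*), 9.09% against 2.24%. In all, 9 of the 44 genes were on at least 1 list, of which 3 heparan sulfotransferase genes rose and 6 did not pass. These counts too have no share over all tested genes beside them. *Ndst1* was on all 3 lists and *Has2*, *Chst11* and *Slc26a2* on none. A match or a listing is a description, and its part in the changes was not tested.

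The linker is started by xylosyltransferases *Xylt1* and *Xylt2*, which place xylose on the core protein. Of 6 linker genes, 1 was higher (16.7%, against 10.5% of all tested genes), 0 were lower (against 6.40%) and 5 did not pass, with a median log2 fold change of 0.14. At an unadjusted p under 0.05 limma gave 2 higher (33.3%, against 19.0% of all tested genes) and 0 lower (against 14.9%). Under median-ratio or quantile scaling *Xylt1* did not pass. From *Mir140*-null replicates 3 and 4 alone limma called 0, with 0 at an unadjusted p under 0.05, and the median log2 fold change was 0.03. In wild-type replicates 1 to 4 *Xylt1* was at 22.7, 40.5, 33.9 and 36.1 TPM, and in *Mir140*-null replicates 1 to 4 at 64.5, 67.9, 43.2 and 54.6 TPM. *Xylt1* had the highest wild-type level of the group, and its *Mir140*-null values were all above its wild-type values, with replicate 3 the lowest. Its mean rose from 33.3 ± 7.56 to 57.5 ± 11.1 TPM (SD, n = 4), a ratio of 1.73 (log2 fold change 0.78, standard error 0.21, limma adjusted p = 0.0384). It was kept without wild-type replicate 2 or *Mir140*-null replicate 3 and lost in the other 6 fits with 1 library left out (limma adjusted p 0.0297 to 0.0974), and with *Mir140*-null replicates 3 and 4 alone the log2 fold change was 0.56 (limma adjusted p = 0.221). *B3galt6* was at 1.91, 2.60, 2.23 and 2.26 TPM in wild-type replicates 1 to 4, against 2.95, 2.78, 3.29 and 2.72 TPM in *Mir140*-null replicates 1 to 4. *B3galt6*, a galactosyltransferase of the linker, was slightly higher in every *Mir140*-null library than in any wild-type library without passing (log2 fold change 0.28, standard error 0.12, limma adjusted p = 0.145). *Xylt2*, *B4galt7*, *B3gat3* and *Fam20b* overlapped between genotypes, with log2 fold changes of -0.31 to 0.24 and limma adjusted p from 0.297 to 0.843.

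Chondroitin chains are the main load of aggrecan. Their polymerization needs *Chsy1*, *Chsy3*, *Chpf* and *Chpf2*, their sulfation at carbon 4 *Chst11*, and their conversion to dermatan sulfate the epimerase *Dse*. Of 15 tested chondroitin genes, 4 were higher (26.7%, against 10.5% of all tested genes), 0 were lower (against 6.40%) and 11 did not pass, and 3 were higher under median-ratio scaling and 2 under quantile normalization. Their median log2 fold change was 0.48. At an unadjusted p under 0.05 limma gave 8 higher (53.3%, against 19.0% of all tested genes) and 0 lower (against 14.9%). From *Mir140*-null replicates 3 and 4 alone limma called 0, and the median was 0.35. At an unadjusted p under 0.05 that fit gave 5 higher (33.3%, against 16.5% of all tested genes) and 0 lower (against 8.44%). *Chst11*, the chondroitin 4-O-sulfotransferase, had the highest wild-type level of the group. The TPM of *Chst11* were 30.2, 70.7, 59.0 and 61.5 in wild-type and 149, 136, 93.3 and 109 in *Mir140*-null replicates 1 to 4. Wild-type replicate 1 was the lowest library, and the *Mir140*-null libraries were all above the wild-type ones, with replicates 1 and 2 the highest. The mean rose from 55.3 ± 17.5 to 122 ± 25.6 TPM (SD, n = 4), a ratio of 2.20 (log2 fold change 1.17, standard error 0.27, limma adjusted p = 0.0266). It passed in 4 of the 8 fits with 1 library left out and was lost without wild-type replicates 3 or 4 or *Mir140*-null replicates 1 or 2 (limma adjusted p 0.0286 to 0.0701), and with *Mir140*-null replicates 3 and 4 alone the log2 fold change was 0.92 (limma adjusted p = 0.169). Wild-type replicates 1 to 4 had 0.423, 0.834, 0.761 and 0.989 TPM of *Chst7*, and *Mir140*-null replicates 1 to 4 had 1.45, 1.76, 1.97 and 2.30 TPM. *Chst7*, a 6-O-sulfotransferase, was low in all libraries but higher in each *Mir140*-null library than in any wild-type library. Its mean rose from 0.752 ± 0.239 to 1.87 ± 0.358 TPM (SD, n = 4), a ratio of 2.49 (log2 fold change 0.71, standard error 0.15, limma adjusted p = 0.0188). Among the 8 fits with 1 library left out, *Chst7* was lost without wild-type replicate 3 (limma adjusted p 0.0518), and with *Mir140*-null replicates 3 and 4 alone the log2 fold change was 0.85 (limma adjusted p = 0.0559).

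*Chpf2* measured 14.3, 16.6, 22.0 and 16.9 TPM in wild-type replicates 1 to 4 and 36.7, 43.2, 27.3 and 23.6 TPM in *Mir140*-null replicates 1 to 4. *Chpf2* encodes a partner of the chondroitin polymerase, and its *Mir140*-null libraries lay above the wild-type ones, replicate 4 by the smallest margin. The mean rose from 17.4 ± 3.25 to 32.7 ± 8.89 TPM (SD, n = 4), a ratio of 1.87 (log2 fold change 0.85, standard error 0.21, limma adjusted p = 0.0317), and it was kept when wild-type replicate 3 or *Mir140*-null replicates 3 or 4 were left out but not in the other 5 such fits (limma adjusted p 0.0267 to 0.0757). In wild-type replicates 1 to 4 *Dse* was at 14.3, 18.3, 25.1 and 25.4 TPM, and in *Mir140*-null replicates 1 to 4 at 49.7, 44.5, 28.3 and 36.0 TPM. *Dse* did not overlap either, and *Mir140*-null replicate 3 was closest to the wild-type range. It rose from 20.8 ± 5.39 to 39.6 ± 9.42 TPM (SD, n = 4), a ratio of 1.90 (log2 fold change 0.90, standard error 0.23, limma adjusted p = 0.0353), and was kept only without *Mir140*-null replicate 3 among the 8 fits with 1 library left out (limma adjusted p 0.0276 to 0.0899). With *Mir140*-null replicates 3 and 4 alone, *Chpf2* had a log2 fold change of 0.53 (limma adjusted p = 0.147) and *Dse* one of 0.63 (limma adjusted p = 0.203).

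Non-overlapping values below the threshold were found for the chain-extending enzymes *Chsy1* and *Chsy3* and for *Ust*, which sulfates uronic acid at carbon 2. *Chsy1* was at 9.14, 13.3, 11.6 and 13.5 TPM in wild-type replicates 1 to 4, against 18.6, 16.5, 14.1 and 18.4 TPM in *Mir140*-null replicates 1 to 4. The TPM of *Chsy3* were 4.31, 5.21, 4.99 and 4.29 in wild-type and 10.02, 8.72, 6.54 and 5.79 in *Mir140*-null replicates 1 to 4. In both, each *Mir140*-null library was above the wild-type range, and limma gave a log2 fold change of 0.48 (adjusted p = 0.0647) for *Chsy1* and of 0.60 (adjusted p = 0.0528) for *Chsy3*, which among the 8 fits with 1 library left out passed without *Mir140*-null replicate 4 (adjusted p = 0.0384). Wild-type replicates 1 to 4 had 3.06, 3.76, 3.71 and 3.79 TPM of *Ust*, and *Mir140*-null replicates 1 to 4 had 3.95, 3.95, 3.90 and 4.34 TPM. The gap between genotypes was small in *Ust* (log2 fold change 0.14, standard error 0.12, limma adjusted p = 0.432). The other 8 tested genes, *Csgalnact1*, *Csgalnact2*, *Chpf*, *Chst3*, *Chst12*, *Chst14*, *Chst15* and *Dsel*, had log2 fold changes from -0.72 (*Chst12*) to 0.66 (*Chst14*), all with overlapping genotypes and limma adjusted p from 0.108 to 0.873, and *Chst3* changed sign under quantile normalization. When factors estimated from the residuals of the fit were added to the model, further genes passed: *Chsy3* higher and *Chst12* lower with 1 or 2 factors, and *Chsy1* and *Csgalnact1* higher with 2. These factors were taken after genotype was removed, so they left fold changes as they were and altered only the residual spread. With 2 factors the calls over all tested genes went from 1797 higher and 1100 lower to 2708 and 2153. No conclusion is drawn from genes that passed only with such factors, here or below. *Chsy1* also passed with a filter on a mean of at least 5 TPM. *Chst13* did not exceed 0.13 TPM and was not tested.

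Heparan chains are polymerized by *Ext1* and *Ext2*, and their sulfation begins with the N-deacetylase and N-sulfotransferase enzymes *Ndst1* and *Ndst2*, on which later steps depend. Of 11 tested heparan genes, 3 were higher (27.3%, against 10.5% of all tested genes), 0 were lower (against 6.40%) and 8 did not pass, and the counts were the same under median-ratio and quantile scaling. Their median log2 fold change was 0.46. At an unadjusted p under 0.05 limma gave 4 higher (36.4%, against 19.0% of all tested genes) and 0 lower (against 14.9%). From *Mir140*-null replicates 3 and 4 alone 2 were higher (against 2.08% of all tested genes) and 0 lower (against 1.22%) by limma, with a median of 0.44. At an unadjusted p under 0.05 that fit gave 4 higher (36.4%, against 16.5%) and 0 lower (against 8.44%). *Hs2st1* measured 5.89, 6.37, 6.83 and 4.92 TPM in wild-type replicates 1 to 4 and 11.2, 15.2, 15.4 and 14.7 TPM in *Mir140*-null replicates 1 to 4. This gene encodes the 2-O-sulfotransferase of heparan sulfate, and its 4 *Mir140*-null values were all above its wild-type values, with replicate 1 the lowest of them. It rose from 6.00 ± 0.814 to 14.1 ± 1.997 TPM (SD, n = 4), a ratio of 2.35 (log2 fold change 1.11, standard error 0.15, limma adjusted p = 0.00651), and passed in all 8 fits with 1 library left out (limma adjusted p up to 0.0261). From *Mir140*-null replicates 3 and 4 alone the log2 fold change was 1.20 (limma adjusted p = 0.0292). In wild-type replicates 1 to 4 *Ndst1* was at 3.48, 5.29, 4.93 and 4.94 TPM, and in *Mir140*-null replicates 1 to 4 at 9.10, 8.86, 9.51 and 10.5 TPM. The genotypes did not overlap, with wild-type replicate 1 the lowest library. The mean of *Ndst1* rose from 4.66 ± 0.801 to 9.50 ± 0.731 TPM (SD, n = 4), a ratio of 2.04 (log2 fold change 0.90, standard error 0.14, limma adjusted p = 0.00930), and it passed in all 8 fits with 1 library left out (limma adjusted p up to 0.0302). From the same *Mir140*-null replicates 3 and 4 alone the log2 fold change was 0.97 (limma adjusted p = 0.0487). *Ndst2* was at 8.78, 12.8, 7.70 and 8.97 TPM in wild-type replicates 1 to 4, against 26.1, 18.1, 17.3 and 14.6 TPM in *Mir140*-null replicates 1 to 4. *Ndst2* did not overlap either, with *Mir140*-null replicate 1 the highest and wild-type replicate 2 the highest of its genotype. Its mean rose from 9.58 ± 2.25 to 19.0 ± 4.91 TPM (SD, n = 4), a ratio of 1.99 (log2 fold change 0.91, standard error 0.21, limma adjusted p = 0.0245). It passed in 4 of the 8 fits with 1 library left out and was lost without wild-type replicates 1, 3 or 4 or *Mir140*-null replicate 2 (limma adjusted p 0.0253 to 0.0663 over the 8 fits), and with *Mir140*-null replicates 3 and 4 alone the log2 fold change was 0.70 (limma adjusted p = 0.115).

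*Glce* encodes the epimerase that turns glucuronic into iduronic acid in heparan chains. The TPM of *Glce* were 12.1, 18.5, 17.5 and 16.6 in wild-type and 24.1, 21.6, 22.4 and 21.7 in *Mir140*-null replicates 1 to 4. Its genotypes did not overlap, yet it missed the threshold (log2 fold change 0.46, standard error 0.14, limma adjusted p = 0.0572). *Glce* passed with a filter on a mean of at least 5 TPM and with 2 factors from residuals. *Sulf2*, an extracellular enzyme that trims 6-O-sulfate from finished chains, had the highest wild-type level of the heparan genes. Wild-type replicates 1 to 4 had 51.0, 40.4, 41.0 and 58.5 TPM of *Sulf2*, and *Mir140*-null replicates 1 to 4 had 35.2, 64.3, 49.4 and 61.1 TPM. The genotypes overlapped, with *Mir140*-null replicate 1 the lowest of all 8 libraries, and no change was called (log2 fold change 0.12, standard error 0.21, limma adjusted p = 0.734), and its sign changed under quantile normalization. The other 6 tested heparan genes, *Ext1*, *Ext2*, *Extl2*, *Extl3*, *Hs6st1* and *Sulf1*, had log2 fold changes of 0.10 to 0.69 with limma adjusted p from 0.182 to 0.735, and their genotypes overlapped. Of these, *Sulf1* was higher with 2 factors from residuals. Its log2 fold change was 0.68 with all libraries and 1.18 with *Mir140*-null replicates 3 and 4 alone (limma adjusted p = 0.0838). *Hs6st2* was at 0.168 to 0.411 TPM and was not tested.

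Of the 2 hyaluronan synthases, *Has2* was the only one tested. *Has2* measured 20.4, 28.4, 22.1 and 23.8 TPM in wild-type replicates 1 to 4 and 141, 104, 66.9 and 75.4 TPM in *Mir140*-null replicates 1 to 4. Every *Mir140*-null library lay above every wild-type library, and *Mir140*-null replicates 1 and 2 were the highest. The mean rose from 23.7 ± 3.44 to 96.8 ± 33.4 TPM (SD, n = 4), a ratio of 4.08, with log2 fold change 1.93, standard error 0.23, limma adjusted p = 0.00529. It passed in all 8 fits that left out 1 library (limma adjusted p up to 0.0221), and with *Mir140*-null replicates 3 and 4 alone the log2 fold change was 1.55 (limma adjusted p = 0.0162). *Has3* stayed between 0.306 and 0.642 TPM in the 8 libraries and was not tested. *Has1*, a hyaluronan synthase outside the 47 genes and named after its values were seen, was at 46.96, 76.1, 54.7 and 54.5 TPM in wild-type replicates 1 to 4, while *Mir140*-null replicates 1 to 4 had 43.2, 50.9, 51.5 and 68.3 TPM, with overlapping genotypes (log2 fold change -0.11, standard error 0.18, limma adjusted p = 0.696). *Has2* thus made up 27.0% to 30.3% of the summed TPM of the 3 synthases in wild-type libraries and 76.3%, 66.9%, 56.3% and 52.4% in *Mir140*-null replicates 1 to 4.

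**Figure D4:**
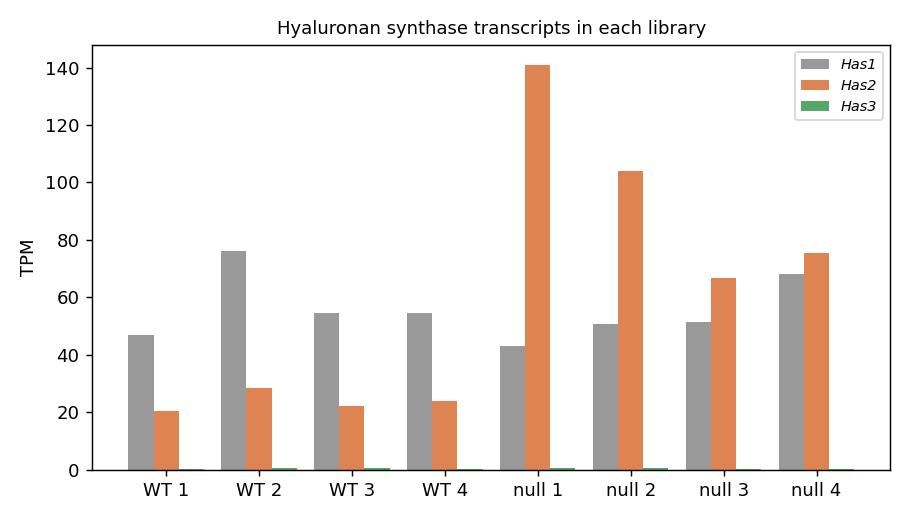
Bars give the TPM of *Has1*, *Has2* and *Has3* in each of the 4 wild-type and 4 *Mir140*-null libraries. *Has1* is the taller bar in every wild-type library and *Has2* in every *Mir140*-null library, and *Has3* is at most 0.642 TPM.

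Among the genes of sulfate and sugar supply limma called changes both ways. Of these 11 genes, all tested, 2 were higher (18.2%, against 10.5% of all tested genes), 1 was lower (9.09%, against 6.40%) and 8 did not pass, with a median log2 fold change of 0.09. Under median-ratio scaling 0 were higher and 1 was lower, and under quantile normalization 1 was higher and 1 lower (4 higher, 36.4% against 19.0% of all tested genes, and 1 lower, 9.09% against 14.9%, at an unadjusted p under 0.05 in the unscaled limma fit). From *Mir140*-null replicates 3 and 4 alone limma called 0, with 2 higher (18.2%, against 16.5% of all tested genes) and 1 lower (9.09%, against 8.44%) at an unadjusted p under 0.05, and the median was 0.03. In wild-type replicates 1 to 4 *Slc26a2* was at 30.6, 24.5, 19.5 and 21.2 TPM, and in *Mir140*-null replicates 1 to 4 at 7.24, 10.99, 12.8 and 13.9 TPM. The *Mir140*-null libraries were all below the wild-type libraries, and *Mir140*-null replicate 1 was the lowest. The mean of this sulfate transporter fell from 23.9 ± 4.89 to 11.2 ± 2.92 TPM (SD, n = 4), a *Mir140*-null to wild-type ratio of 0.469 (log2 fold change -1.04, standard error 0.22, limma adjusted p = 0.0193). It was lost without *Mir140*-null replicate 2 (limma adjusted p = 0.0521) and passed in the other 7 fits with 1 library left out, and with *Mir140*-null replicates 3 and 4 alone the log2 fold change was -0.78 (limma adjusted p = 0.0822).

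PAPS is made from sulfate and ATP by *Papss1* and *Papss2*, carried into the Golgi by *Slc35b2* and *Slc35b3*, and its by-product PAP is broken down there by *Impad1*. *Slc35b3* was at 5.75, 6.60, 7.60 and 6.27 TPM in wild-type replicates 1 to 4, against 12.6, 8.83, 9.13 and 9.87 TPM in *Mir140*-null replicates 1 to 4. Each *Mir140*-null library was above the wild-type range, with replicate 1 the highest. The mean of *Slc35b3* rose from 6.56 ± 0.780 to 10.1 ± 1.72 TPM (SD, n = 4), a ratio of 1.54 (log2 fold change 0.55, standard error 0.15, limma adjusted p = 0.0383). The TPM of *Impad1* were 11.2, 9.34, 10.6 and 10.95 in wild-type and 20.02, 14.6, 13.7 and 14.8 in *Mir140*-null replicates 1 to 4. *Impad1* was likewise higher in each *Mir140*-null library, most in replicate 1, and rose from 10.5 ± 0.835 to 15.8 ± 2.87 TPM (SD, n = 4), a ratio of 1.498 (log2 fold change 0.53, standard error 0.14, limma adjusted p = 0.0383). Both were close to the threshold: with 1 library left out, *Slc35b3* passed in 0 of 8 fits (limma adjusted p 0.0502 to 0.0932) and *Impad1* in 1, without *Mir140*-null replicate 3 (limma adjusted p 0.0418 to 0.0869). With *Mir140*-null replicates 3 and 4 alone, *Slc35b3* had a log2 fold change of 0.48 (limma adjusted p = 0.114) and *Impad1* one of 0.41 (limma adjusted p = 0.118), and under median-ratio scaling neither passed, nor *Impad1* under quantile normalization.

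Wild-type replicates 1 to 4 had 71.6, 66.9, 53.9 and 63.7 TPM of *Papss2*, and *Mir140*-null replicates 1 to 4 had 81.2, 86.0, 80.3 and 78.0 TPM. *Papss2*, the more abundant of the PAPS synthases in each library, was higher in every *Mir140*-null library than in any wild-type library but missed the threshold (log2 fold change 0.35, standard error 0.11, limma adjusted p = 0.0574). *Papss2* passed with 1 or 2 factors from residuals and with sample weights. *Papss1* was at 19.996, 15.4, 17.99 and 17.7 TPM in wild-type replicates 1 to 4, while *Mir140*-null replicates 1 to 4 had 6.98, 13.8, 15.7 and 15.4 TPM, with overlapping genotypes (log2 fold change -0.48, standard error 0.24, limma adjusted p = 0.200). Its values, given after they were seen, are the base of the ratio of *Papss2* to *Papss1*, which was 2.99 to 4.33 in wild-type libraries and 5.07 to 11.6 in *Mir140*-null libraries. *Ugdh*, which makes the UDP-glucuronic acid used in all 3 chain types, was the most abundant of the 47 genes. *Ugdh* measured 182, 381, 298 and 271 TPM in wild-type replicates 1 to 4 and 450.0, 455, 377 and 512 TPM in *Mir140*-null replicates 1 to 4. Wild-type replicate 2 was above *Mir140*-null replicate 3, so the genotypes overlapped, and the gene did not pass (log2 fold change 0.70, standard error 0.21, limma adjusted p = 0.0576). Among the 8 fits with 1 library left out it passed in 1, without wild-type replicate 2 (limma adjusted p = 0.0366), and it passed with 2 factors from residuals. *Slc26a1*, *Slc35b2*, *Slc35d1*, *Uxs1* and *Cant1* had log2 fold changes of -0.51 to 0.17 and limma adjusted p from 0.197 to 0.507, with *Slc35b2* changing sign under quantile normalization.

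**Figure D5:**
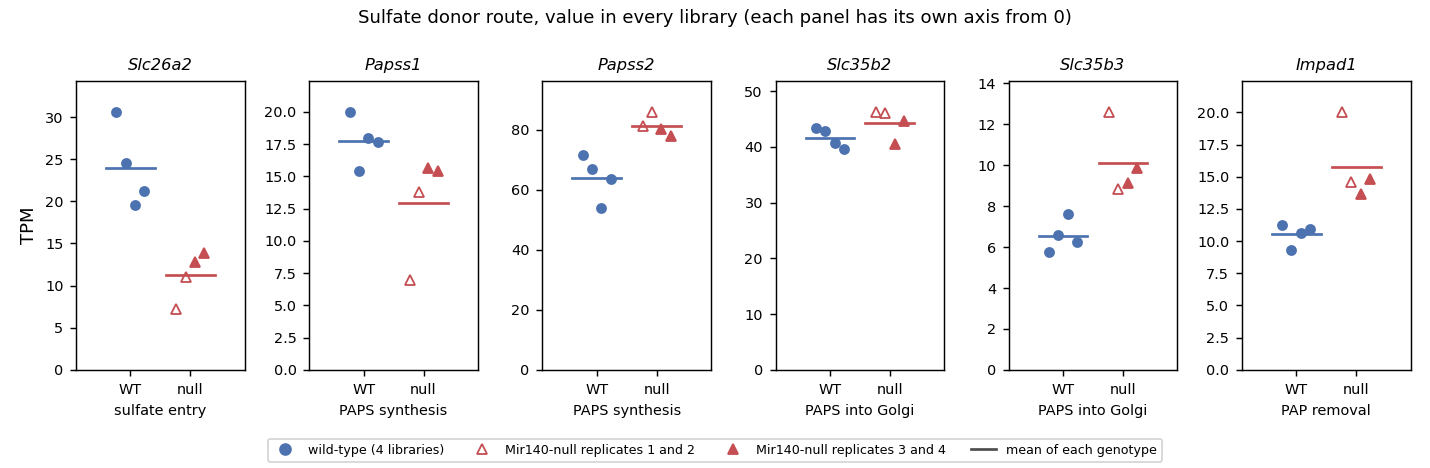
Points give the TPM in each of the 4 wild-type (blue circles) and 4 *Mir140*-null libraries (open triangles for replicates 1 and 2, filled for 3 and 4) of 6 genes in the order of the sulfate donor route, with a line at each genotype's mean. *Slc26a2* lies lower in all *Mir140*-null libraries, *Papss2*, *Slc35b3* and *Impad1* lie higher, and *Papss1* and *Slc35b2* overlap.

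Neighbouring steps of the pathway were described from 5 lists of other genes, with means ± SD (n = 4). Of 6 tested among 13 further synthesis genes, 3 were higher (50.0%, against 10.5% of all tested genes) and 0 lower by limma (3 higher, 50.0% against 19.0%, and 0 lower, against 14.9%, at an unadjusted p under 0.05). They were *Extl1* (14.9 ± 1.49 TPM in wild-type against 35.1 ± 8.17 TPM in *Mir140*-null libraries; log2 fold change 1.16, standard error 0.18, limma adjusted p = 0.00876), a relative of the heparan polymerases, and the 3-O-sulfotransferases *Hs3st3b1* (4.84 ± 0.133 TPM in wild-type against 7.38 ± 0.737 TPM in *Mir140*-null libraries; log2 fold change 0.52, standard error 0.11, limma adjusted p = 0.0230) and *Hs3st3a1* (1.87 ± 0.267 TPM in wild-type against 3.05 ± 0.381 TPM in *Mir140*-null libraries; log2 fold change 0.50, standard error 0.13, limma adjusted p = 0.0351), each without overlap between genotypes. *Hs3st3a1* did not pass under median-ratio scaling or in any of the 8 fits with 1 library left out (limma adjusted p 0.0518 to 0.0931), and *Hs3st3b1* was lost without wild-type replicates 2, 3 or 4 (limma adjusted p up to 0.0637). Of 11 nucleotide sugar genes, 2 were higher (18.2%, against 10.5%) and 0 lower (against 6.40%) by limma. At an unadjusted p under 0.05 limma gave 4 higher (36.4%, against 19.0% of all tested genes) and 0 lower (against 14.9%). The 2 past the threshold were *Gfpt2* (122 ± 19.8 TPM in wild-type against 205 ± 46.1 TPM in *Mir140*-null libraries; log2 fold change 0.73, standard error 0.18, limma adjusted p = 0.0336), an entry enzyme of hexosamine synthesis, and *Ugp2* (39.8 ± 6.14 TPM in wild-type against 59.0 ± 9.90 TPM in *Mir140*-null libraries; log2 fold change 0.56, standard error 0.16, limma adjusted p = 0.0452), which makes UDP-glucose, the substrate of *Ugdh*. Neither passed under median-ratio or quantile scaling. With 1 library left out, both were lost without wild-type replicates 1, 3 or 4 or *Mir140*-null replicates 1 or 2, and *Ugp2* also without *Mir140*-null replicate 3 (limma adjusted p up to 0.0845 for *Gfpt2* and 0.110 for *Ugp2*).

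Of the 5 keratan sulfate genes limma called 0, with 1, *B3gnt7*, at an unadjusted p under 0.05, and quantile normalization gave 2 higher, *B3gnt7* and *Chst2*, both named after their values were seen. *B3gnt7* was at 0.224 to 0.498 TPM in wild-type and 0.578 to 0.628 TPM in *Mir140*-null libraries. It thus reached the filter of 0.5 TPM only in the *Mir140*-null libraries, and no conclusion is drawn from its higher values. Of the 18 genes of glycosaminoglycan breakdown limma without scaling called 0, with 3 lower (16.7%, against 14.9% of all tested genes) and 0 higher (against 19.0%) at an unadjusted p under 0.05, and median-ratio and quantile scaling each gave 1 lower. Limma again called 0 with *Mir140*-null replicates 3 and 4 as the only null libraries, with 4 higher (22.2%, against 16.5% of all tested genes) and 0 lower (against 8.44%) at an unadjusted p under 0.05. Of 17 tested core protein and receptor genes, 7 were higher (41.2%, against 10.5% of all tested genes) and 1 lower (5.88%, against 6.40%), and 6 were higher and 3 lower under median-ratio and under quantile scaling, where *Sdc3* did not pass and *Sdc2* and *Gpc4* were lower. Among the 17177 tested genes, 1368 were higher and 1320 lower under median-ratio scaling, and 1506 higher and 1120 lower under quantile normalization. From *Mir140*-null replicates 3 and 4 alone 1 of the 17 core protein and receptor genes was higher (against 2.08% of all tested genes) and 0 lower (against 1.22%) by limma. At an unadjusted p under 0.05 that fit gave 6 higher (35.3%, against 16.5% of all tested genes) and 1 lower (5.88%, against 8.44%). The 4 with the smallest adjusted p were *Gpc3* (119 ± 5.62 TPM in wild-type against 213 ± 20.3 TPM in *Mir140*-null libraries; log2 fold change 0.83, standard error 0.10, limma adjusted p = 0.00509), *Cd44* (93.9 ± 19.9 TPM in wild-type against 219.9 ± 22.3 TPM in *Mir140*-null libraries; log2 fold change 1.24, standard error 0.17, limma adjusted p = 0.00699), *Cspg4* (56.9 ± 17.9 TPM in wild-type against 159 ± 27.0 TPM in *Mir140*-null libraries; log2 fold change 1.50, standard error 0.23, limma adjusted p = 0.00839) and *Agrn* (13.3 ± 0.810 TPM in wild-type against 21.8 ± 1.72 TPM in *Mir140*-null libraries; log2 fold change 0.67, standard error 0.10, limma adjusted p = 0.00876). *Cd44* is the main hyaluronan receptor and the others carry heparan or chondroitin chains. *Dcn*, the small proteoglycan that was lower, was named after its values were seen (482 ± 24.7 TPM in wild-type against 350.0 ± 55.8 TPM in *Mir140*-null libraries; log2 fold change -0.47, standard error 0.12, limma adjusted p = 0.0351). Of the 8 fits with 1 library left out, *Dcn* passed in 1, without *Mir140*-null replicate 4 (limma adjusted p 0.0210 to 0.0904), and the 4 genes before it passed in all 8. With *Mir140*-null replicates 3 and 4 alone, *Extl1* and *Gpc3* remained past the threshold among these lists (limma adjusted p = 0.0489 and 0.0341).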

How the data were processed

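The deposited TPM of the 8 libraries were used as given; the authors made them with Salmon against the mm10 transcriptome from stranded poly(A) libraries read as single 75-base reads. The authors' later RUVSeq and DESeq2 steps are not in these values. TPM carry no depth, so no counting interval was given. Identifiers repeated on several identical lines (273) were counted once. All identifiers were named from GENCODE M21 (99.8% found). Genes reaching 0.5 TPM in 4 or more libraries were compared by genotype with limma 3.58.1 (R 4.3.3; log2 of TPM + 1, trended eBayes, Benjamini-Hochberg adjusted p, threshold 0.05). Tables and figures used Python 3.11.15, pandas 2.3.3 and matplotlib 3.10.9. Members and lists were chosen with earlier results of these data known. Values per library were given for each gene past the threshold, without overlap, or highest in wild-type libraries within its role; up to 4 called genes were named from each other list. Alternatives changed the pseudocount, filter, scaling, factors, weights, block and libraries. Some results for single genes are not reported here.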

Additional observations from a re-analysis of the deposited data

Results flagged for a closer look

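In 4 of the 88 groups of 4 libraries checked, 1 library lay far from the other 3 of its genotype, with a gap to the nearest above Dixon's 95% critical value; chance gives about 1 in 20 such groups. *Ust* was at 3.06 TPM in wild-type replicate 1, against 3.71 to 3.79 TPM in the other wild-type libraries. *Ust* was also at 4.34 TPM in *Mir140*-null replicate 4, against 3.90 to 3.95 TPM in the other *Mir140*-null libraries. *Hs6st1*, a heparan 6-O-sulfotransferase, was at 29.1 TPM in *Mir140*-null replicate 4, against 19.4 to 20.8 TPM. *Cant1*, a Golgi nucleotidase, was at 2.52 TPM in wild-type replicate 2, against 3.26 to 3.27 TPM. None of these 3 genes passed the limma threshold.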

How the results depend on the processing

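Over 18 alternatives the 12 genes past the threshold had 215 fits, of which 137 passed and 78 did not. None reversed, but the genotypes of all 12 do not overlap, so changing the pseudocount, weights or libraries could not reverse them. The filters, residual factors and replicate block left their fold changes as they were. Only the scaling fits could have reversed a gene. *Has2*, *Hs2st1* and *Ndst1* passed in all 18. The counts depended on the processing, and the cause was not tested. With 11 of the 44 genes higher and 1 lower as reported, limma called 3 higher with no filter, 7 under median-ratio scaling, 7 under quantile normalization and 18 with 2 factors from residuals, and 2 lower, *Slc26a2* and *Chst12*, with 1 factor and with 2 factors. With 1 library left out, 4 to 10 were higher and 0 to 1 lower. Of all tested genes, 1797 higher and 1100 lower became 977 and 539 with no filter and 2708 and 2153 with 2 factors, while those lower became 605 with a mean of at least 5 TPM and 2016 with 1 factor. With 1 library left out they were 779 to 1553 higher and 419 to 1214 lower. With *Mir140*-null replicates 3 and 4 alone, chosen after the data were seen, limma gave 3 of the 44 higher and 0 lower (12 and 1 at an unadjusted p under 0.05), and 357 and 210 of all tested genes. *Chst7* was below the mean of 5 TPM and had no value there.

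With a replicate block, which pairs libraries by their number, limma gave 4 of the 44 higher and 0 lower, and 671 higher and 454 lower of all tested genes. The labels state nothing that the numbers share. Libraries with the same number correlated at 0.0308, 0.016, 0.0688 and -0.00911 across genes, which are not independent replicates, after each genotype's mean was removed, and no wild-type library correlated best with its own number.

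The files hold no depth, so which low values depth limits is unknown.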

Other observations

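Of the 14 chondrocyte markers, the 4 with the smallest limma adjusted p were *Chad* (1346 ± 335 TPM in wild-type against 573 ± 67.0 TPM in *Mir140*-null libraries; log2 fold change -1.21, standard error 0.18, limma adjusted p = 0.00801), *Hapln1* (358 ± 16.1 TPM in wild-type against 241 ± 22.7 TPM in *Mir140*-null libraries; log2 fold change -0.57, standard error 0.09, limma adjusted p = 0.0100), *Acan* (552 ± 105 TPM in wild-type against 1010.0 ± 98.5 TPM in *Mir140*-null libraries; log2 fold change 0.88, standard error 0.15, limma adjusted p = 0.0107) and *Col9a3* (3219.8 ± 254 TPM in wild-type against 2316 ± 273 TPM in *Mir140*-null libraries; log2 fold change -0.48, standard error 0.11, limma adjusted p = 0.0266). *Acan*, the main carrier of chondroitin chains, was the 1 marker that rose, and the link protein *Hapln1*, which ties aggrecan to hyaluronan, was among the 5 that fell. None of the 4 passed with *Mir140*-null replicates 3 and 4 as the only null libraries, where limma called 0 of the 14 (6 lower and 1 higher at an unadjusted p under 0.05; adjusted p = 0.0598, 0.0528, 0.0741 and 0.0755 in the same order). *Col9a3* passed in 3 of the 8 fits with 1 library left out and was lost without wild-type replicates 1, 3 or 4 or *Mir140*-null replicates 1 or 3 (limma adjusted p 0.0394 to 0.0744), and the other 3 passed in all 8.

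Of the 5 tested hypertrophic markers, led by *Spp1*, limma called 0, with 1, *Mmp13*, at an unadjusted p under 0.05, and their sums were 146 to 326 TPM in wild-type and 159 to 269 TPM in *Mir140*-null libraries. *Mmp13*, a collagenase named after its values were seen, was higher in the fit with *Mir140*-null replicates 3 and 4 as the only null libraries (log2 fold change 0.94, limma adjusted p = 0.0428) and not in that with all libraries (log2 fold change 0.58, standard error 0.21, limma adjusted p = 0.0967). Osteoblast markers, led by *Col1a1*, summed to 805 to 1561 TPM in wild-type libraries and to 52.0, 53.2, 1341 and 911 TPM in *Mir140*-null replicates 1 to 4, and limma called 0 of 5, with 1 at an unadjusted p under 0.05.

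Skeletal muscle markers, led by *Tnnt3*, summed to 64.2 to 98.9 TPM in wild-type and 34.6 to 58.3 TPM in *Mir140*-null libraries, without overlap. Limma called 0 of 4, with 2 lower (50.0%, against 14.9% of all tested genes) and 0 higher (against 19.0%) at an unadjusted p under 0.05. Endothelial markers, led by *Pecam1*, summed to 6.22 to 23.3 and to 4.02 to 30.0 TPM, with 0 of 5 called by limma and 0 at an unadjusted p under 0.05. Macrophage and leukocyte markers, led by *Cd68*, summed to 22.2 to 39.97 and to 17.0 to 31.4 TPM. Of 3 tested, 1 was lower (33.3%, against 6.40% of all tested genes), *Lyz2* (log2 fold change -0.74, standard error 0.17, limma adjusted p = 0.0243). *Lyz2* was at 0.881 to 1.51 TPM in wild-type and 0.0455 to 0.617 TPM in *Mir140*-null libraries. Its wild-type values alone carried it past the filter of 0.5 TPM, so no conclusion is drawn from its lower values. *Lyz2* was lost without wild-type replicates 2 or 3 or *Mir140*-null replicates 1 or 2 (limma adjusted p up to 0.0667) and did not pass with *Mir140*-null replicates 3 and 4 as the only null libraries (limma adjusted p = 0.126). Erythroid markers, led by *Hbb-bs*, summed to 646 to 1854 TPM in wild-type libraries and to 432, 256, 1725 and 1365 TPM in *Mir140*-null replicates 1 to 4, with 0 of 5 called by limma and 0 at an unadjusted p under 0.05. The 4 adipocyte markers summed to at most 0.747 TPM and were not tested. No marker of these lists was at 0 in every library.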
